A study of Homo sapiens with 18 samples.

Results

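The genes described here are those whose response to enzastaurin changed between 4 and 18 h in U251 cells, an established human glioblastoma line. Enzastaurin competes with ATP for protein kinases and was designed for the beta isoform of protein kinase C, while the study's title concerns inhibition of GSK3 in glioma cells. The response at each time was the difference in mRNA level between cells exposed to enzastaurin and cells exposed to DMSO, a common drug solvent, and the change of effect was the difference at 18 h minus the difference at 4 h. It rested on 12 of the 18 arrays of the study, 3 in each of the groups enzastaurin 18 h, DMSO 18 h, enzastaurin 4 h and DMSO 4 h. The remaining 6 arrays, enzastaurin and DMSO at 10 h, were not used to sort genes, entered only the estimate of spread and the mean level, and show the course between both times. All groups were the same cells in RPMI medium with 5% serum. The labels give no dose of enzastaurin and no untreated culture at the start, and do not say that the arrays of a group came from different cultures, so the spread behind the p-values may be technical.

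Of 19775 genes with a probe set of their own, 12376 lay above the median level of all probe sets and were tested, with limma on log2 of the intensity plus 16 and Benjamini-Hochberg adjustment over all 12376. A called gene had an adjusted p under 0.05, and all changes and effects below are on this log2 scale, enzastaurin minus DMSO. In total 963 genes (7.78% of those tested) were called for a change of effect, 504 (4.07%) with a rise and 459 (3.71%) with a fall of the effect, and 170 of them moved at least 2-fold. At an unadjusted p under 0.05 there were 2596. The median change over all genes tested was 0.00903 and the median standard error (SE) of a change 0.189. The called genes were sorted by the effect at each time, which was called for 1981 genes (16%) at 18 h and for 224 genes (1.81%) at 4 h.

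Several pathways that recur below are well known. When Wnt signalling is on, or when GSK3 is inhibited, beta-catenin escapes degradation, enters the nucleus with TCF/LEF factors and switches on target genes, among them feedback inhibitors such as AXIN2 and NKD1. SREBP factors leave the endoplasmic reticulum when its membrane sterol falls and turn on cholesterol and fatty acid synthesis. ATF4 is translated when amino acids run short or proteins misfold, and it raises amino acid transporters, asparagine and serine synthesis and tRNA synthetases. Immediate early genes encode short-lived transcripts that follow growth factor and stress kinases within minutes, and YAP with TEAD factors keeps matricellular genes such as CCN1 and CCN2 active in spread cells.

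Arrays were alike in level. Median intensities of the 12 arrays lay between 99.5 and 125.9, the medians of the tested genes between 669.6 and 728.1, and the mean correlation of an array with the others of its group between 0.977 and 0.983. The number of arrays limits the precision, and a bulk array cannot tell a change of RNA per cell from a change in the mix of cells. Of 10 astroglial and glioma markers, 5 were above the median level (VIM, NES, CD44, SOX2 and SLC1A3), while GFAP, S100B, OLIG2, AQP4 and CHI3L1 averaged intensities of 53.4 or less. Markers of blood, endothelial, neuronal and other cells summed to 2195 to 2951 in enzastaurin cells and 2041 to 2455 in DMSO cells at 18 h. At 4 h the same sums were 1875 to 2108 in enzastaurin cells and 2101 to 2429 in DMSO cells, against astroglial sums of 46977 or more on every array. SYT1, a synaptic vesicle gene among those markers, was itself late-only (0.96). The part of other cells in any result was not tested.

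Most of the change was a late gain of effect. Late-only genes, with an effect called at 18 h and not at 4 h, numbered 755, of which 362 rose and 393 fell. Growing genes, called at both times with the same sign and a larger size at 18 h, numbered 23 (15 rises, 8 falls). Early-only genes, called at 4 h and not at 18 h, numbered 60, and 48 of those changes were rises, that is, early decreases that had gone by 18 h. Reversing genes, called at both times with opposite signs, numbered 23, of which 20 were higher at 18 h and lower at 4 h. Fading genes, called at both times but smaller at 18 h, numbered 5, and 97 genes were called for the change while the effect was called at neither time.

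A call at a single time is not itself a change of effect. Of the 1877 genes called at 18 h alone, 755 (40.2%) were also called for the change, and 1122 were not. Of the 120 genes called at 4 h alone, 60 were called for the change. Among the 104 genes called at both times, 51 changed and 53 kept the same sign without a called change. For 643 of the 755 late-only genes the 95% interval of the 4 h effect lay within 0.5 of 0, and for 44 of the 60 early-only genes that of the 18 h effect did. The genes nearest the limits were ZFAND2A, just inside the p limit (0.34, SE 0.11, adjusted p = 0.05), and GPM6A, just outside it (-0.33, adjusted p = 0.0501). For the level limit they were RBM43, just inside, and REG3G, just outside, with changes of -0.59 and -0.49.

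**Figure D1:**
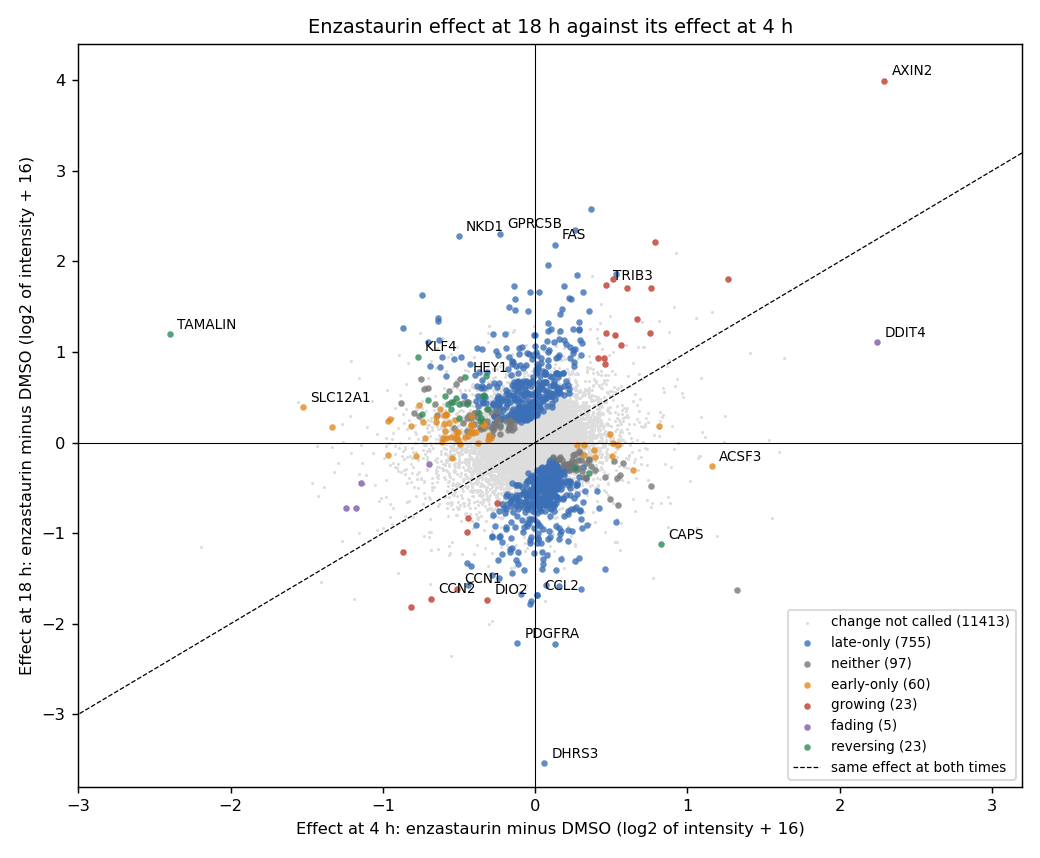
Effect of enzastaurin at 18 h (vertical) against its effect at 4 h (horizontal), both as enzastaurin minus DMSO on the log2 scale of intensity plus 16, 1 point per gene tested. The 755 late-only genes form a vertical cloud around 0 at 4 h, the 23 reversing genes lie at upper left and lower right, and AXIN2 stands alone at upper right.

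The balance of rises and falls depended on how arrays were set against each other. With each array's median subtracted, the median change over all genes tested was -0.112, and 546 genes were called, 143 rises and 403 falls, against 504 rises and 459 falls on the deposited scale. With quantile normalization there were 1050, 570 rises and 480 falls. The medians subtracted were those of all probe sets of an array, dim ones included. They were 108.5, 114 and 99.5 in enzastaurin cells at 4 h, against 109.9 to 125.9 in the other groups at 4 and 18 h. Subtracting them shifts the change of every gene by the same amount. Why the medians differed was not tested. Averaging the probe sets of a gene left 543 called genes, 289 rises and 254 falls. That average, here and below, took every probe set of a gene, also those under the level limit. A call lost in this way can thus reflect dim probe sets, or a bright one that differs, as in RAB22A below. Other probe sets above the median level existed for 77 of the 139 genes named by the rule in the processing notes. Of these 138 probe sets, 117 moved in the same direction, 74 of them with an unadjusted p under 0.05, and 1 moved the other way at that p. That 1 was a probe set of LZTS2.

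The change of effect is the 4 to 18 h change in enzastaurin cells minus that in DMSO cells, and both arms contributed. Between 4 and 18 h 3710 genes (30.0%) changed in enzastaurin cells and 2518 (20.3%) in DMSO cells, which themselves spent that time in culture. Of the 963 genes called for the change of effect, 488 moved in enzastaurin cells alone, 195 in DMSO cells alone, 260 in both and 20 in neither. In 90 of the 260 the arms moved in opposite directions. The DMSO cells moved further than the enzastaurin cells in 262 of the 963. Reversing genes moved in enzastaurin cells in 23 of 23 cases, with a median of 1.02 in enzastaurin cells and -0.02 in DMSO cells among the 20 rises. Both arms share their arrays with the change of effect that selected the genes. These counts therefore describe the called genes and are no separate evidence.

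**Figure D2:**
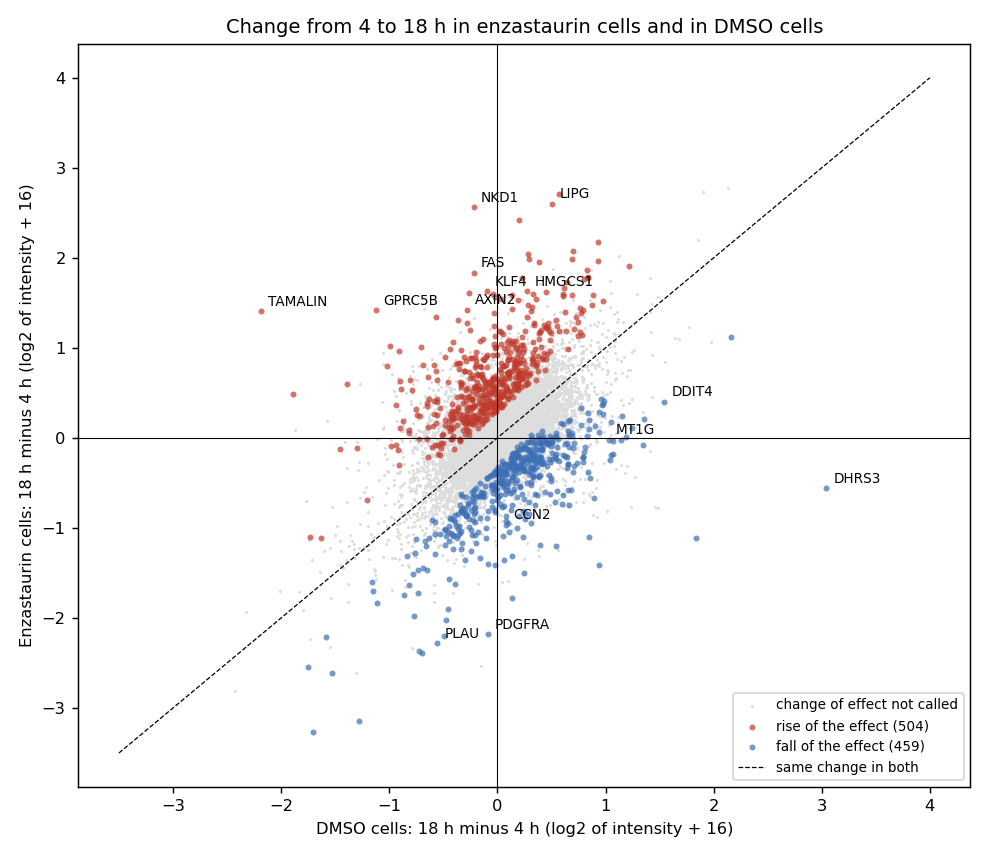
Change from 4 to 18 h in enzastaurin cells (vertical) against the same change in DMSO cells (horizontal), log2 scale, 1 point per gene tested. Points on the dashed line moved alike in both; most of the 504 rises sit above it near a DMSO change of 0, while DHRS3 lies far right because it rose by 3.04 in DMSO cells.

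DHRS3, a retinal reductase whose gene is a known target of retinoic acid, shows the DMSO arm most plainly. At 18 h its intensities were 49.1, 133 and 45.3 in enzastaurin cells, against 1018, 976 and 898 in DMSO cells. The arrays at 4 h gave 184, 159 and 38.7 in enzastaurin cells, against 49.3, 117 and 178 in DMSO cells. The groups did not overlap at 18 h and did at 4 h. The log2 change from 4 to 18 h was -0.56 in enzastaurin cells and 3.04 in DMSO cells, a change of effect of -3.60 (SE 0.70, adjusted p = 0.0024). DDIT4, described below, was likewise a gene whose DMSO level moved more than its enzastaurin level.

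The 10 h effects, which the sorting did not use, placed the classes in time. At 10 h the effect was called for 1046 genes (8.45%). It was called for all 23 growing genes, each with the sign it had at 18 h, and for 279 of the 755 late-only genes, 273 with the sign of 18 h. The median late-only rise had an effect of -0.05 at 4 h, 0.22 at 10 h and 0.56 at 18 h, and the median late-only fall 0.05, -0.21 and -0.57. By 10 h the median gene had made 44.3% of its change among late-only, 60.6% among growing, 59.7% among early-only and 43.6% among reversing genes. These shares also use the 4 and 18 h effects by which the genes were sorted. Over all genes tested the median share was 48.3%, but only 7.78% of these had a called change, so it is no yardstick of timing. The step of 4 to 10 h was called for 174 genes (1.41%) and that of 10 to 18 h for 276 (2.23%), and among the 963 genes for 128 and 213. For 646 of the 963 neither step alone was called.

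**Figure D3:**
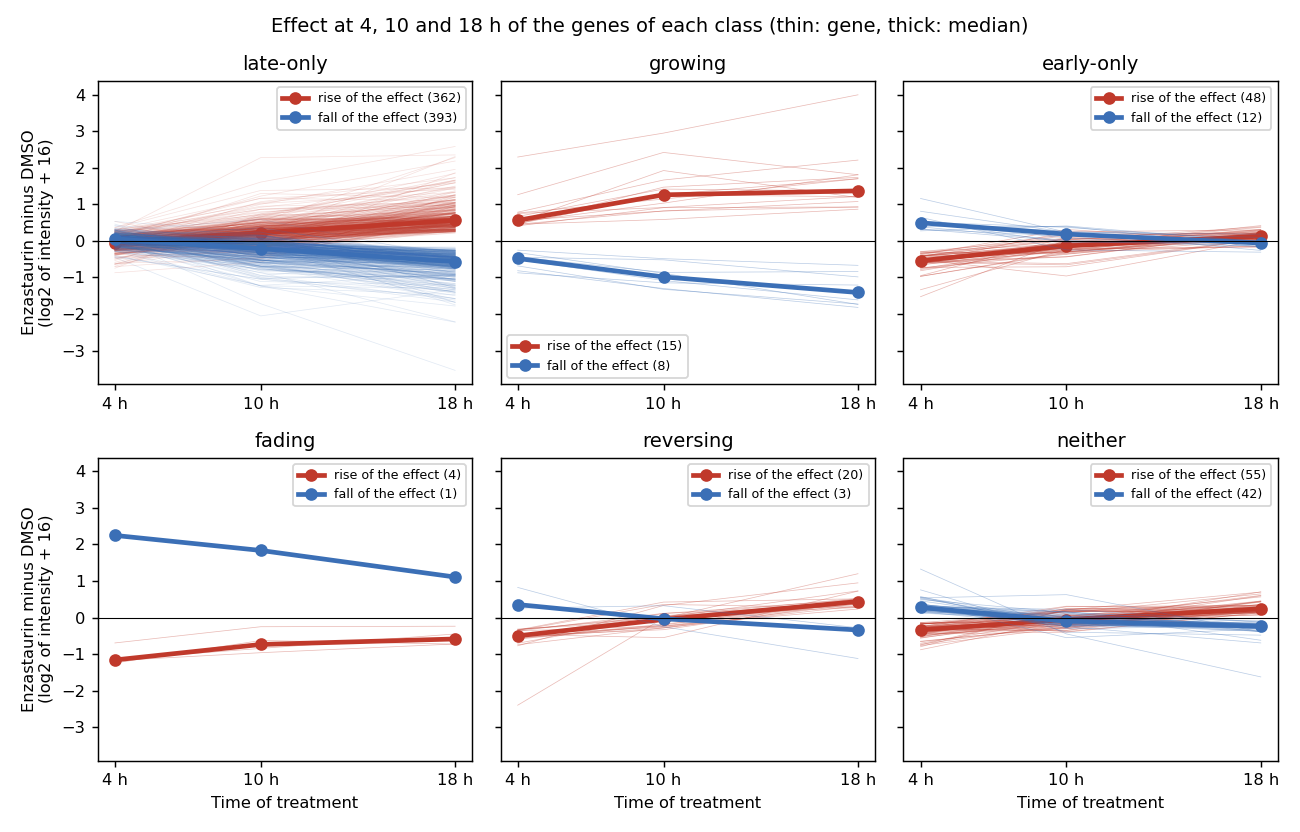
Effect at 4, 10 and 18 h (log2 scale, enzastaurin minus DMSO) of every gene in each class as thin lines, with the class median as a thick line, red for rises and blue for falls of the effect. Late-only medians leave 0 between 4 and 10 h and go on to 18 h, the median of growing rises moves mostly by 10 h, and reversing medians cross 0 near 10 h.

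Gene length, which the sorting did not use, differed between classes. The median gene spanned 30.0 kb over all genes tested, 39.8 kb among late-only, 23.0 kb among growing, 14.5 kb among early-only and 6.95 kb among reversing genes. These are descriptions of the classes, with no test. Early-only and reversing genes were thus shorter at the median than all genes tested.

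AXIN2, a feedback gene of Wnt signalling, had the largest rise among growing genes. Of 17 members of a list of Wnt feedback genes and beta-catenin targets, 7 rose and 1 fell in effect, where 4.07% of all genes tested rose and 3.71% fell. The median change was 0.54, against 0.00903 over all genes tested. The rises were AXIN2, NKD1, TNFRSF19, LEF1, BAMBI, ZNRF3 and DKK1, and the fall PRICKLE1 (-0.65). With array medians subtracted 6 rose and 1 fell. The list's median effect was 0.0744 at 4 h, -0.0294 at 10 h and 0.0492 at 18 h.

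AXIN2 encodes the scaffold of the complex that marks beta-catenin for degradation, and is a standard readout of beta-catenin activity. The 18 h arrays gave intensities of 3325, 2928 and 3160.3 in enzastaurin cells, against 229.9, 139 and 186 in DMSO cells. Earlier, at 4 h, the values were 1189.5, 1125 and 1157 in enzastaurin cells, against 228, 214 and 228 in DMSO cells, so the groups were already apart by a wide margin. The effect was 2.29 at 4 h, 2.95 at 10 h and 4.00 at 18 h, a change of 1.70 (SE 0.19, adjusted p = 6.66e-06). Enzastaurin cells changed by 1.43 between 4 and 18 h and DMSO cells by -0.28.

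NKD1, which inhibits Wnt signalling by binding Dishevelled, behaved differently at 4 h on the probe set used. Its intensities at 18 h were 612, 634 and 709 in enzastaurin cells, against 149, 88.4 and 134 in DMSO cells. Values at 4 h were 132, 99.4 and 67.7 in enzastaurin cells, against 170.2, 155 and 111 in DMSO cells, overlapping and low. The effect was -0.50 at 4 h (adjusted p = 0.405), 0.54 at 10 h and 2.28 at 18 h, and the change of 2.78 (SE 0.35, adjusted p = 2.49e-05) was the largest among late-only rises. Another NKD1 probe set of nearly the same mean intensity (165.8 against 166.4) had effects of 0.59 at 4 h and 1.41 at 18 h. Its change was 0.81 (limma, unadjusted p = 0.192). A dimmer one (72.3) had an effect of -0.12 at 4 h and a change of 2.32. TNFRSF19, a receptor of the TNF family, grew, with effects of 0.79, 1.67 and 2.21 at 4, 10 and 18 h. ZNRF3, a ubiquitin ligase that removes Wnt receptors from the cell surface, grew as well, with 0.76, 1.15 and 1.70. LEF1, a DNA-binding partner of beta-catenin, was late-only (1.66 at 18 h, 0.32 at 4 h, adjusted p of the change 5.12e-05). DKK1, a secreted Wnt antagonist, was early-only, with an effect of 0.03 at 18 h and -0.51 at 4 h.

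Wnt receptor genes were named in 2 classes. FZD7, which encodes such a receptor, reversed, with intensities at 18 h of 1679.6, 1426 and 1484 in enzastaurin cells, against 1243, 1238 and 1178 in DMSO cells. The 4 h arrays had 567, 624 and 591 in enzastaurin cells, against 1035, 1051 and 929.9 in DMSO cells. Both times the groups were apart, in opposite directions, and the change was 1.06 (SE 0.12, adjusted p = 1.25e-05). FZD1, another receptor of this family and chosen after its value was seen, was early-only with a change of 0.58.

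Among genes of GSK3, the destruction complex and protein kinase C, 3 of 15 members were called (20%), where 7.78% of all genes tested were. The list's median change was -0.0176, and none of its members was called with array medians subtracted or with probe sets averaged. GSK3B rose late, with intensities at 18 h of 3214, 2971 and 3081 in enzastaurin cells, against 2185, 2295 and 2131 in DMSO cells. For 4 h the intensities were 2040, 1707 and 1878 in enzastaurin cells, against 1994, 2103 and 2054 in DMSO cells, and the change was 0.62 (SE 0.10, adjusted p = 0.000632). The call was lost with array medians subtracted and when its probe sets were averaged. GSK3A (0.28, SE 0.18, adjusted p = 0.405) and PRKCB (-0.07, SE 0.48, adjusted p = 0.96) were not called. PRKCB was dim, with a mean intensity of 104 on its brightest probe set, near the level limit of 102. Its other probe sets lay under that limit. PRKCA, protein kinase C alpha, fell late (-0.39, adjusted p = 0.0346) and CTNNB1, beta-catenin itself, was just under the limit (-0.34, adjusted p = 0.0496). Leaving out 1 array ended the PRKCA call in 7 of 12 cases (adjusted p up to 0.0928) and the CTNNB1 call in 10 of 12 (up to 0.148). PRKCA turned positive (0.23) when probe sets were averaged.

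MYC, named in the study's title, was lower at every time and its change of effect was not called. At 18 h its intensities were 1273, 954 and 1325 in enzastaurin cells, against 2523, 2362 and 2412 in DMSO cells. In the 4 h groups they were 1032, 943 and 1121 in enzastaurin cells, against 1544, 1652 and 1857 in DMSO cells. The effect was -0.70 at 4 h, -0.75 at 10 h and -1.04 at 18 h, and the change -0.35 (SE 0.15, adjusted p = 0.19). Of 29 genes of the MYC network and ribosome biogenesis 1 was called (3.45%), a rise of SHMT2, where 7.78% of all genes tested were called. The list's median change was 0.0343.

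**Figure D4:**
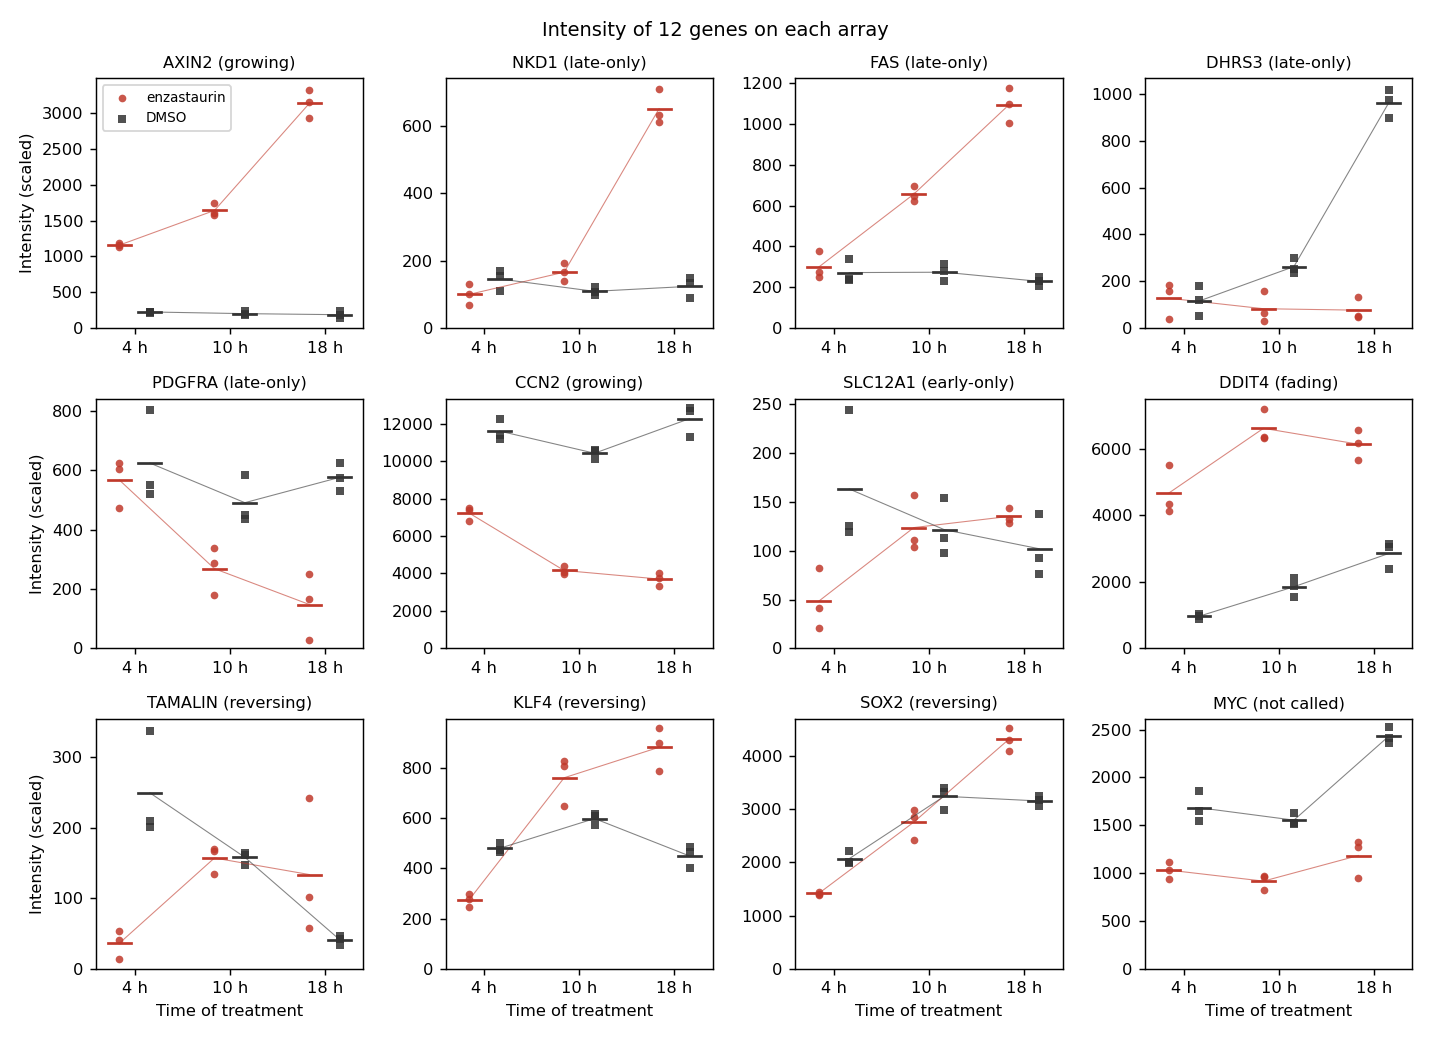
Intensity on each array (points) with the group mean (bar, joined by lines) for 12 genes at 4, 10 and 18 h, enzastaurin in red to the left of DMSO in black in each pair. AXIN2, NKD1 and FAS climb in enzastaurin cells, DHRS3 climbs in DMSO cells, and the enzastaurin and DMSO means of KLF4 and SOX2 change places between 4 and 18 h.

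Most of the change in lipid genes was a rise of effect. Of 21 enzymes of cholesterol and fatty acid synthesis 13 rose and none fell in effect, with a median change of 0.582. Of 16 SREBP sensors and sterol traffic genes 10 rose and none fell, with a median of 0.483. Both medians stand against 0.00903 over all genes tested, and 4.07% of those were called as rises. With array medians subtracted the 13 and 10 became 6 and 3, with none called as falls, and with probe sets averaged 8 and 7. Without the 2 arrays that deviated most from their groups among the 12 at 4 and 18 h, enzastaurin 18 h replicate 3 and DMSO 18 h replicate 1, the counts were 11 and 6.

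SCD, which desaturates fatty acids, was already higher at 4 h and grew. The 18 h arrays gave intensities of 8177, 7915 and 8600.3 in enzastaurin cells, against 2308, 2755 and 2501 in DMSO cells. At 4 h they were 3726, 3397 and 3973 in enzastaurin cells, against 2473, 2507 and 2314 in DMSO cells, and the change was 1.10 (SE 0.11, adjusted p = 1.93e-06). IDI1, an isomerase of the isoprenoid pathway, had effects of 0.00 at 4 h, 1.30 at 10 h and 1.18 at 18 h. Its intensities at 18 h were 5133, 5806 and 5789 in enzastaurin cells, against 2539.8, 2287 and 2508 in DMSO cells. The arrays at 4 h gave 1737, 2012 and 2274 in enzastaurin cells, against 2328, 1816 and 1892 in DMSO cells, overlapping. SQLE, squalene epoxidase, was also late-only (0.83, SE 0.10). HMGCS1, which makes the precursor of mevalonate, changed by 1.35, DHCR7, the last enzyme to cholesterol, by 1.07, and FASN, fatty acid synthase, by 1.01. IDI1 lost its call when probe sets were averaged.

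Among the sensors, INSIG1, which holds the SREBP machinery in the endoplasmic reticulum, had effects of 1.26 at 4 h, 2.42 at 10 h and 1.81 at 18 h, so that its 10 h value lay above both others. INSIG2, its relative, was late-only with 0.63 at 18 h and -0.39 at 4 h. STARD4, a sterol carrier, had intensities at 18 h of 1569.7, 1657 and 1576 in enzastaurin cells, against 623, 557 and 552 in DMSO cells. Earlier, at 4 h, the values were 472, 470.4 and 469 in enzastaurin cells, against 320.3, 428 and 352 in DMSO cells, with a change of 1.09 (SE 0.15, adjusted p = 7.64e-05). LIPG, endothelial lipase, gave the largest change of these lists (2.09, SE 0.29), and VLDLR, a lipoprotein receptor, changed by 0.77, a call lost with array medians subtracted. The LXR targets ABCA1 (-0.26) and ABCG1 (-0.07), which export sterol, were not called.

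SREBF2 encodes SREBP-2, the factor that drives the cholesterol genes, and it also rose late (0.68 at 18 h, -0.08 at 4 h, adjusted p of the change 0.0303). Its promoter is shown because among the sterol lists it is the called gene that holds the sterol regulatory element TCACCCCAC, searched on both strands from 250 bases before to 50 after the start. The letters occur in 0.377% of the 10080 tested genes with a promoter in the RefSeq table (GRCh38.p14) in 1 of 15 sensor genes and in 0 of 18 synthesis enzymes. The promoter was chosen after its value was seen. It lies at chr22:41832855-41833154 on the plus strand, with the match in capitals, 133 bases before the start.
SREBF2: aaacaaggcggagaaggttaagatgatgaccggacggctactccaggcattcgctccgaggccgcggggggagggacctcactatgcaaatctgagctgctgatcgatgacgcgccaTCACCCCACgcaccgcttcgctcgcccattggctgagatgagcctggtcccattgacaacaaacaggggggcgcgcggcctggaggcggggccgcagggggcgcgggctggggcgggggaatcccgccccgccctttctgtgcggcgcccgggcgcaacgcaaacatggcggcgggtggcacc

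Genes of the ATF4 programme were the other large group of rises. Of 23 ATF4 and CHOP targets 12 rose and 1 fell in effect (median change 0.483), where 4.07% of all genes tested rose. The median effect of these targets was 0.222 at 4 h, 0.799 at 10 h and 0.608 at 18 h, so it was largest at 10 h. Of 11 serine, glycine and one-carbon enzymes 6 rose (median 0.433), of 16 amino acid transporters 8 (median 0.429) and of 17 cytosolic tRNA synthetases 5 (median 0.224), with no falls in these 3 lists. With array medians subtracted the rises were 5, 2, 2 and 0. The transporter and synthetase counts fell to 3 and 1 without the 2 arrays that deviated most and to 4 and 2 with probe sets averaged, and leaving out 1 array gave 3 to 9 transporters and 2 to 6 synthetases. Of 29 ER chaperones, sensors and ER degradation genes 1 was called, ERN1 (0.88), with a list median of 0.0948. With probe sets averaged the ERN1 call was lost, and its other 2 probe sets above the median level changed by 0.14 and 0.07.

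TRIB3, a pseudokinase induced by ATF4, grew, with intensities at 18 h of 4617, 4921 and 5297 in enzastaurin cells, against 1636, 1443 and 1341 in DMSO cells. Values at 4 h were 1556, 1618 and 1677 in enzastaurin cells, against 1235, 1094 and 1179 in DMSO cells. The groups did not overlap at either time, and the change was 1.28 (SE 0.13, adjusted p = 2.35e-06). GDF15, a secreted stress cytokine, was late-only, with intensities at 18 h of 1287, 1240.3 and 1269 in enzastaurin cells, against 504, 411 and 484 in DMSO cells. The 4 h arrays had 298, 269.9 and 235 in enzastaurin cells, against 283, 211 and 220 in DMSO cells, overlapping. SESN2, an inhibitor of mTORC1 signalling, had effects of 0.52, 1.93 and 1.19 at 4, 10 and 18 h, so its largest value was at 10 h. ATF4 itself changed by 0.37, while DDIT3, which encodes CHOP, was not called (0.08). The SESN2 call was lost with array medians subtracted, and the GDF15 call with probe sets averaged. The other GDF15 probe sets were dim, with mean intensities of 18.8 and 8.29.

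ASNS, asparagine synthetase, is the classic amino acid response gene. At 18 h its intensities were 6722, 7293 and 8514 in enzastaurin cells, against 2936, 2889 and 3076 in DMSO cells. For 4 h the intensities were 1857, 1917 and 2364 in enzastaurin cells, against 1608, 1582 and 1809 in DMSO cells, already apart by less, and the change was 1.04 (SE 0.13, adjusted p = 3.07e-05). SLC7A5, the light chain of a transporter of large neutral amino acids, changed by 0.76 (SE 0.11) and its heavy chain SLC3A2 by 0.47. SLC1A4, a transporter of serine and alanine, changed by 0.91, and PHGDH, the first enzyme of serine synthesis, by 0.60. YARS1 (0.44), GARS1 (0.42) and WARS1 (0.42), which charge tRNAs with tyrosine, glycine and tryptophan, rose by similar amounts, and all 3 calls were lost with array medians subtracted, as was that of PHGDH. The ASNS call was lost with probe sets averaged, where its other probe set had a mean intensity of only 15.6.

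ATF4 binds with C/EBP factors to a composite element, searched here as TGATGNAAN on both strands of the same RefSeq promoters. It occurs in 1.89% of the promoters of all genes tested, in 5 of 21 of the ATF4 and CHOP list (23.8%), in 5 of 14 of the tRNA synthetases (35.7%), in 4 of 13 of the amino acid transporters (30.8%) and in 1 of 8 of the one-carbon enzymes. Late-only rises as a whole held it in 2.3% and late-only falls in 3.31%. The 4 lists share members, and together 13 of 54 promoters held a match, 6 of them of called genes (ASNS, ATF3, SLC3A2, SLC7A1, SLC38A1 and CARS1). A match describes letters, not binding. The 3 promoters below show the element, in capitals, in a synthesis enzyme, a transporter and a synthetase of the amino acid response. ASNS follows from the naming rule, while the other 2 were chosen after values were seen. They lie at chr7:97872359-97872658 (ASNS, minus strand), chr12:46266467-46266766 (SLC38A1, minus strand) and chr11:3057374-3057673 (CARS1, minus strand) of GRCh38.p14, each written along the gene's own strand.
ASNS: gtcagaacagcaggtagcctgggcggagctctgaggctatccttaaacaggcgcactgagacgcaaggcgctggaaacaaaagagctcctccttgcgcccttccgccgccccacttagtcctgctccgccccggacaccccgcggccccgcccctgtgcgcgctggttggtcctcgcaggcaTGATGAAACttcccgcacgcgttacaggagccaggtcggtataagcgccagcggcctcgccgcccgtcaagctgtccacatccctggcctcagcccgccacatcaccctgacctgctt
SLC38A1: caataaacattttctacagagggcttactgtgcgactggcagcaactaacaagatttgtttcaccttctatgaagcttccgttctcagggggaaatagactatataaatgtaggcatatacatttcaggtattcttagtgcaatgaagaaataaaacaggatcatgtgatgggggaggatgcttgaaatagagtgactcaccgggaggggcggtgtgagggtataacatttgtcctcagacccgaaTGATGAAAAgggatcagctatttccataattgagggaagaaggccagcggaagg
CARS1: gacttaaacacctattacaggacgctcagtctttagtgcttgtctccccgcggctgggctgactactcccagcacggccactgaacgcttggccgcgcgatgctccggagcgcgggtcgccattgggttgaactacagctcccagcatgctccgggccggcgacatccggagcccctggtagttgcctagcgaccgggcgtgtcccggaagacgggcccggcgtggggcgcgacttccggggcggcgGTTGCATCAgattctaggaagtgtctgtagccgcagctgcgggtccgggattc
In ASNS the element starts 68 bases before the start of transcription, in SLC38A1 4 bases before and in CARS1 3 bases before, there on the opposite strand. SLC38A1, a transporter of small neutral amino acids, changed by 0.56 and CARS1, which charges tRNA with cysteine, by 0.42.

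**Figure D5:**
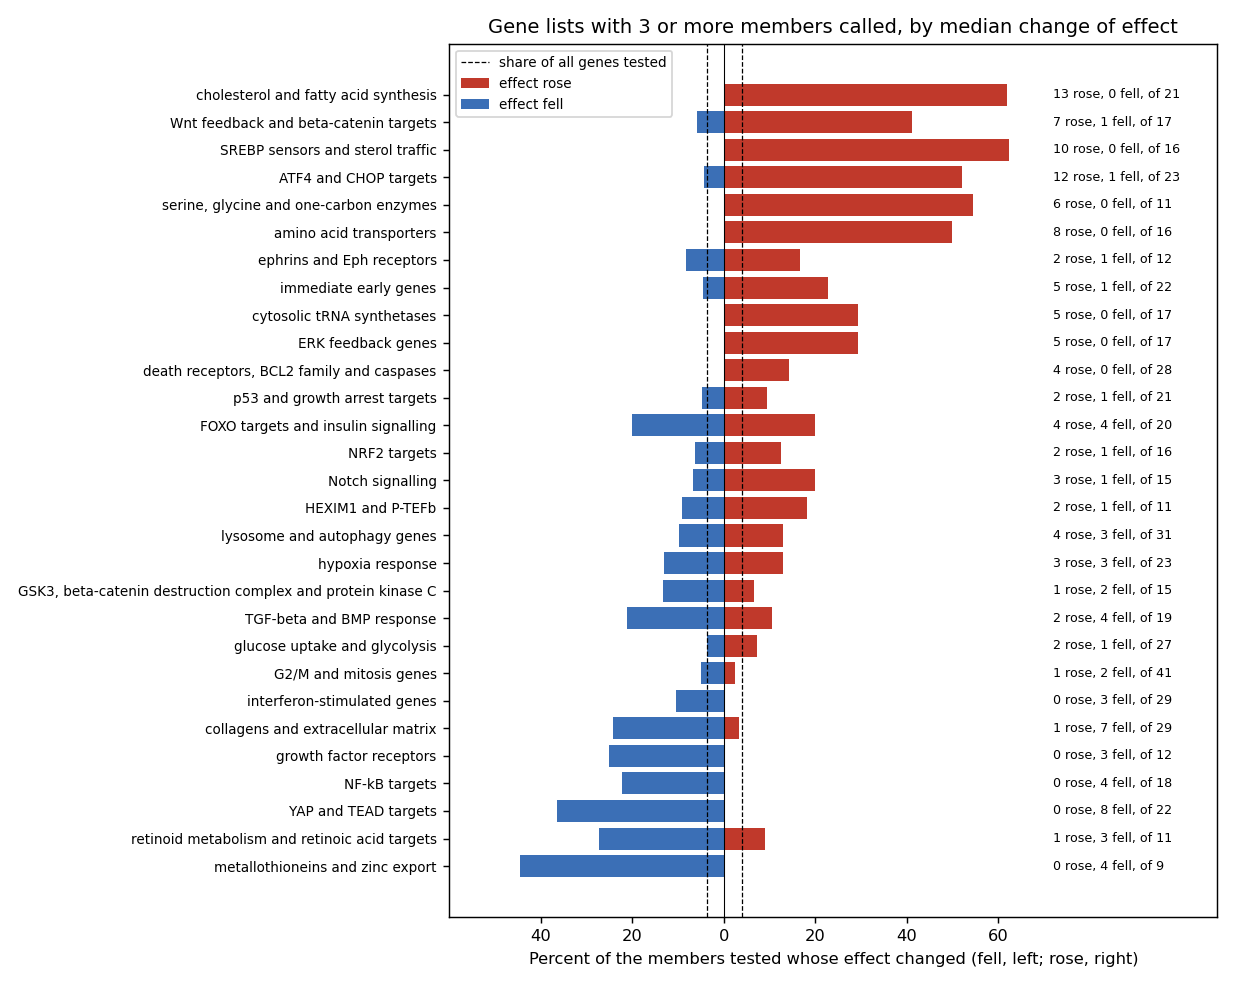
Share of the tested members of each gene list whose effect rose (red, right) or fell (blue, left) between 4 and 18 h, for lists with 3 or more members called, ordered by median change of effect, with the counts at right. Dashed lines mark the shares over all genes tested, 4.07% rises and 3.71% falls; sterol, one-carbon and ATF4 lists extend furthest right, metallothioneins and YAP targets furthest left.

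YAP and TEAD targets and matrix genes had more falls than rises of effect. Of 22 YAP and TEAD targets 8 fell and none rose in effect (median change -0.281), and of 29 collagens and extracellular matrix genes 7 fell and 1 rose (median -0.175). Over all genes tested 3.71% were called as falls. The counts of falls were 8 and 8 with array medians subtracted, and 5 and 5 with probe sets averaged. The matrix gene that rose was FN1, fibronectin (0.99).

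CCN1 and CCN2, matricellular proteins and standard YAP readouts, were lower at 4 h and lost more by 18 h. CCN2 intensities at 18 h were 4026, 3332 and 3752 in enzastaurin cells, against 11281, 12682 and 12854 in DMSO cells. In the 4 h groups they were 7377, 7481 and 6827 in enzastaurin cells, against 11194, 11389 and 12245 in DMSO cells, and the change was -1.04 (SE 0.10, adjusted p = 1.93e-06). CCN1 had effects of -0.51, -1.08 and -1.61 at 4, 10 and 18 h. The other 6 falls of that list were late-only, F3, CRIM1, AMOTL2, AXL, MYOF and AJUBA. F3 encodes tissue factor (-1.01), and AXL a receptor tyrosine kinase (-0.66 at 18 h, 0.00 at 4 h), which lost its call with probe sets averaged. ANKRD1, another common YAP readout, was not called (-0.36).

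PLAU, the urokinase that activates plasminogen, had a late-only fall of effect. The 18 h arrays gave intensities of 1475, 1283 and 1579.6 in enzastaurin cells, against 4543, 5105 and 4988 in DMSO cells. At 4 h they were 7122, 6533 and 7536 in enzastaurin cells, against 7564, 6809 and 7175 in DMSO cells. At 10 h, between these times, they were 2291, 2144 and 2054 in enzastaurin cells, against 2228, 2284 and 2439 in DMSO cells, overlapping. The effect was -0.03 at 4 h, -0.10 at 10 h and -1.75 at 18 h, and the change -1.72 (SE 0.11, adjusted p = 2.09e-08) had the smallest adjusted p of all genes tested. The tissue-type activator PLAT changed by -1.15, the urokinase receptor PLAUR by -0.47 and THBS1, a matrix glycoprotein that activates latent TGF-beta, by -1.23. Both cultures were far lower at 10 h than at 4 h. From 10 to 18 h the DMSO values were higher again while the enzastaurin values were lower still. From 4 to 18 h the changes were -2.28 in enzastaurin cells and -0.56 in DMSO cells.

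DIO2, the deiodinase that activates thyroid hormone, was growing, with intensities at 18 h of 1175, 1173 and 1164 in enzastaurin cells, against 3918, 3974 and 3921 in DMSO cells. The arrays at 4 h gave 2835, 3330 and 2925 in enzastaurin cells, against 3900.1, 3879.9 and 3538 in DMSO cells, and the change was -1.42 (SE 0.10, adjusted p = 6.73e-08). PRSS35, a serine protease homologue, fell late (-2.35, SE 0.18, adjusted p = 1.2e-07), with arms of -1.41 in enzastaurin cells and 0.94 in DMSO cells. PDGFRA, a receptor tyrosine kinase of glial progenitors, had intensities at 18 h of 250.3, 26.7 and 166 in enzastaurin cells, against 573, 625 and 530.2 in DMSO cells. Earlier, at 4 h, the values were 603, 625 and 472 in enzastaurin cells, against 802, 551 and 520.2 in DMSO cells. Its change of -2.09 (SE 0.58, adjusted p = 0.0304) lost its call in 6 of 12 fits that left out 1 array (adjusted p up to 0.0722) and with probe sets averaged. The enzastaurin 18 h values of this gene spread widely.

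Of 18 NF-kB targets 4 fell and none rose in effect (median -0.277), where 3.71% of all genes tested fell. These were CCL2, CXCL8, TNFAIP2 and TNIP1. CXCL8, interleukin 8, had intensities at 18 h of 206, 109 and 237 in enzastaurin cells, against 544, 465 and 354 in DMSO cells. Values at 4 h were 2125, 1963 and 1467 in enzastaurin cells, against 1695, 1418 and 1399 in DMSO cells. The 10 h values were 348, 325 and 273 in enzastaurin cells, against 305, 224 and 292 in DMSO cells, with an effect of 0.20. Thus both cultures had dropped by 10 h, and by 18 h the DMSO values were higher again while the enzastaurin values were lower still. From 4 to 18 h the changes were -3.27 in enzastaurin cells and -1.71 in DMSO cells, and the change of effect was -1.56 (SE 0.30, adjusted p = 0.00234). CCL2, a monocyte chemoattractant, changed by -1.70, a call lost in 5 of 12 fits that left out 1 array (adjusted p up to 0.0823). NFKBIA (-0.38) and TNFAIP3 (-0.21), the pathway's own inhibitors, were not called. Among the 18, 3 fell with array medians subtracted and 2 with probe sets averaged. Of 29 interferon-stimulated genes 3 fell and none rose, ISG15 (-0.97), TRIM22 (-0.84) and BST2 (-0.60), and without the 2 most deviating arrays 1 did. The TRIM22 call was lost in 5 of 12 fits that left out 1 array (adjusted p up to 0.0704).

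Of 9 metallothioneins and zinc handling genes 4 fell and none rose, where 3.71% of all genes tested fell, and here the DMSO cells moved. The list's median change between 4 and 18 h was 0.0179 in enzastaurin cells and 0.553 in DMSO cells. MT1G, a zinc-binding metallothionein, had intensities at 18 h of 3995, 3675 and 3911 in enzastaurin cells, against 9394, 11591 and 7833 in DMSO cells. The 4 h arrays had 3887, 4006 and 3844 in enzastaurin cells, against 4436, 4591 and 4911 in DMSO cells, and the change was -1.05 (SE 0.14, adjusted p = 5.65e-05). MT2A (-0.70) and MT1H (-0.76) fell likewise. Metallothionein genes are close in sequence, so probe sets may share targets. The calls of MT1G, RARB and RDH11 were lost with probe sets averaged, and that of RDH11 also with array medians subtracted and without the 2 most deviating arrays. In the retinoid list 3 of 11 fell and 1 rose. Beside DHRS3 these were RARB, the retinoic acid receptor beta (0.21 in enzastaurin cells, 1.36 in DMSO cells), and RARA (-0.91), against a rise of RDH11 (0.65).

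The reversing genes included several transcription factors. The 20 reversing rises had a median effect of -0.50 at 4 h, -0.05 at 10 h and 0.44 at 18 h. KLF4, a zinc finger factor of differentiation and reprogramming, had intensities at 18 h of 901, 958 and 788 in enzastaurin cells, against 484, 399.8 and 464 in DMSO cells. For 4 h the intensities were 299.8, 247 and 278 in enzastaurin cells, against 465, 472 and 502 in DMSO cells. The groups were apart at both times in opposite directions, with a change of 1.72 (SE 0.17, adjusted p = 1.93e-06). Its call was lost when probe sets were averaged.

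SOX2 and SOX4, transcription factors of neural and glioma stem cells, also reversed. SOX2 intensities at 18 h were 4314, 4538 and 4101 in enzastaurin cells, against 3054, 3168 and 3249.9 in DMSO cells. In the 4 h groups they were 1396, 1413 and 1450.4 in enzastaurin cells, against 1991, 2013 and 2212 in DMSO cells. SOX2 rose with time in both cultures, by 1.59 in enzastaurin cells and 0.61 in DMSO cells, and its effect passed through -0.24 at 10 h. SOX4 intensities at 18 h were 4516, 4259 and 4909.7 in enzastaurin cells, against 2643, 2836 and 2746 in DMSO cells, against a 4 h effect of -0.33 and a change of 1.06 (SE 0.12, adjusted p = 6.21e-06). NES, nestin, another marker of neural stem cells, went the other way and fell late (-0.69, SE 0.11). SOX2 and NES lost their calls when probe sets were averaged.

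The Notch list held 3 rises and 1 fall among 15, where 4.07% of all genes tested rose and 3.71% fell. HEY1, a repressor induced by Notch, reversed, with intensities at 18 h of 1849, 1747 and 2122 in enzastaurin cells, against 1295, 1072 and 1079 in DMSO cells. At 4 h they were 741, 628 and 567 in enzastaurin cells, against 1062, 777 and 852 in DMSO cells. Its effect was still -0.55 at 10 h, so that the turn fell between 10 and 18 h, and the change was 1.19 (SE 0.17, adjusted p = 9.16e-05). NRARP, a feedback inhibitor of Notch, was early-only (0.23 at 18 h, -0.74 at 4 h), HES6 late-only (1.12), and LFNG, a glycosyltransferase of Notch receptors, fell (-0.88).

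TAMALIN, a scaffold protein gene, had the largest reversal at a low level. Its intensities at 18 h were 57.2, 243 and 101 in enzastaurin cells, against 47.1, 34.1 and 42.1 in DMSO cells. The arrays at 4 h gave 13.5, 41.4 and 54.3 in enzastaurin cells, against 338, 210.1 and 201 in DMSO cells. The arms moved oppositely, 1.41 in enzastaurin cells and -2.19 in DMSO cells, with a change of 3.60 (SE 0.55, adjusted p = 0.000264), and its mean level lay near the limit of 102 set on all probe sets. CCNE2, cyclin E2, reversed at a change of 0.86 (SE 0.10), and CEBPB, a partner of ATF4, at 0.63, the CEBPB call being lost with array medians subtracted. RAB22A, an endosomal GTPase, changed by 1.01, a call lost with probe sets averaged. Another RAB22A probe set of similar mean intensity (1572 against 1735) changed by -0.07 (limma, unadjusted p = 0.602). Its effects were 0.01 at 4 h and -0.06 at 18 h, and a dimmer probe set (165) changed by -0.10. The reversal was thus seen only on the probe set used.

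The 3 reversals from higher to lower were CAPS, ACD and MRPL12. CAPS, a calcium-binding protein gene, had intensities at 18 h of 161, 143 and 197 in enzastaurin cells, against 390.4, 347 and 401 in DMSO cells. Earlier, at 4 h, the values were 328, 357 and 444 in enzastaurin cells, against 185, 225 and 203 in DMSO cells, and the change was -1.94 (SE 0.26, adjusted p = 5.03e-05). The other CAPS probe set above the median level (mean intensity 132) changed by -0.80 (limma, unadjusted p = 0.0779). Its effects were -0.11 at 4 h and -0.91 at 18 h, and dimmer probe sets had -0.10 and -0.71 at 4 h. The higher 4 h effect of CAPS was thus seen only on the probe set used. ACD, a subunit of the shelterin complex at telomeres, changed by -0.70 and MRPL12, a mitochondrial ribosomal protein gene, by -0.54. The MRPL12 call was lost with probe sets averaged. Subtracted array medians left 5 reversing genes in all, and a fit to the 12 arrays without 10 h gave 15.

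Immediate early and ERK feedback genes include several of the turning effects. The median effect of 22 immediate early genes was -0.383 at 4 h, -0.139 at 10 h and -0.0107 at 18 h, and 5 of them rose and 1 (CCN1) fell. Of 17 ERK feedback genes 5 rose and none fell, where 4.07% of all genes tested rose. With array medians subtracted these became 3 and 1 rises, and 3 and 3 with probe sets averaged. DUSP5, a nuclear phosphatase of ERK, reversed, with intensities at 18 h of 1107, 1026 and 1211 in enzastaurin cells, against 779, 683 and 953 in DMSO cells. Values at 4 h were 311, 375 and 367 in enzastaurin cells, against 576, 519.6 and 648 in DMSO cells. IER5, an immediate early gene, reversed with a change of 1.10 (SE 0.09, adjusted p = 1.2e-07). DUSP6, another ERK phosphatase, was early-only (0.05 at 18 h, -0.72 at 4 h), and JUN, not called for a change, was lower by about the same amount at both times (-0.62 at 18 h, -0.69 at 4 h).

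Fading effects were few. DDIT4, a stress-induced inhibitor of mTORC1, was higher throughout, with intensities at 18 h of 6174, 5668 and 6585 in enzastaurin cells, against 2375, 3061 and 3135 in DMSO cells. The 4 h arrays had 4338, 4136 and 5528 in enzastaurin cells, against 1048, 873 and 975 in DMSO cells. The effect was 2.25 at 4 h, 1.84 at 10 h and 1.11 at 18 h. Enzastaurin cells changed by 0.40 over this time and DMSO cells by 1.54, and the change of effect was -1.14 (SE 0.17, adjusted p = 0.000246). DDIT4 is itself on the ATF4 and hypoxia lists, where it was the largest fall.

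The 4 other fading genes were lower at 4 h and less so at 18 h. DUSP1, a phosphatase of MAP kinases, had effects of -1.14, -0.84 and -0.45 at 4, 10 and 18 h. HEXIM1, whose protein holds back P-TEFb and so transcript elongation, had -1.18, -0.96 and -0.72. SGK1, a serum-induced kinase gene, changed by 0.52 and ADM, adrenomedullin, by 0.46. All 4 calls were lost with array medians subtracted, and leaving out 1 array ended the call of SGK1 in 6 of 12 cases (adjusted p up to 0.101) and of HEXIM1 in 3 (up to 0.0563). DUSP1 and HEXIM1 also lost theirs with probe sets averaged.

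Early-only genes were mostly early decreases. EFNB2, an ephrin ligand, had intensities at 18 h of 4534, 4829.5 and 4943 in enzastaurin cells, against 4244, 4539 and 4369 in DMSO cells, overlapping. For 4 h the intensities were 3473, 3627 and 3709 in enzastaurin cells, against 4767, 4489.6 and 5233 in DMSO cells, apart, and the change was 0.54 (SE 0.09, adjusted p = 0.000491). IRS2, an adaptor of the insulin receptor, had effects of 0.25 at 18 h and -0.53 at 4 h, with 4 h intensities of 1128, 1336 and 1259 in enzastaurin cells, against 1806, 1729 and 1847 in DMSO cells. BCL6, a transcriptional repressor induced by FOXO factors, had effects of -0.97, -0.31 and -0.14 at 4, 10 and 18 h. The BCL6 change of 0.83 turned to -0.16 when probe sets were averaged, a setting under which IRS2 also lost its call. BCL6 and EFNB2 lost theirs with array medians subtracted.

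Several large early-only changes lost their call when 1 array was left out. SLC12A1, a sodium, potassium and chloride cotransporter gene, had intensities at 18 h of 144, 129 and 133 in enzastaurin cells, against 137, 92.5 and 76.5 in DMSO cells. In the 4 h groups they were 21, 82.6 and 41.6 in enzastaurin cells, against 126, 119.6 and 245 in DMSO cells, and the change of 1.91 (SE 0.50, adjusted p = 0.0206) lost its call in 3 of 12 fits that left out 1 array (adjusted p up to 0.0682). ANG, angiogenin (1.21), and CPEB1, a regulator of mRNA polyadenylation (1.21), each lost theirs in 7 such fits (up to 0.0755 and 0.0913). RFXAP, a subunit of the RFX complex that activates MHC class II genes, changed by 1.18 (SE 0.24), and ZNF10, a KRAB zinc finger repressor, had effects of 0.18 at 18 h and -0.81 at 4 h. The calls of SLC12A1, CPEB1, RFXAP and ZNF10 were lost with probe sets averaged, those of ANG and CPEB1 with array medians subtracted, and that of ZNF10 without DMSO 4 h replicate 1 (adjusted p = 0.0539).

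Early increases that had gone by 18 h numbered 12. CLK2, a kinase of splicing factors, had intensities at 18 h of 1412, 1119 and 1624 in enzastaurin cells, against 1005, 1235 and 1402 in DMSO cells, overlapping. At 4 h they were 1678, 1544 and 1746 in enzastaurin cells, against 888, 930.1 and 991 in DMSO cells, apart, and the change was -0.63 (SE 0.17, adjusted p = 0.0225), lost in 6 of 12 fits that left out 1 array (adjusted p up to 0.0654). NOB1, an endonuclease that completes 18S ribosomal RNA, changed by -0.56 (SE 0.12), with an effect still of 0.40 at 10 h. LZTS2, a leucine zipper protein gene, changed by -0.95 and ACSF3, a mitochondrial malonyl-CoA synthetase, by -1.42. The ACSF3 call was lost in 2 of 12 fits that left out 1 array (adjusted p up to 0.053), and both it and LZTS2 were lost with probe sets averaged. Another LZTS2 probe set above the median level (mean intensity 340 against 597) moved the other way, by 0.46 (limma, unadjusted p = 0.0442). Its 4 h effect was -0.18, against 0.64 on the probe set used. Dimmer LZTS2 probe sets (95.6 and 32.2) changed by 0.40 and -0.74.

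Of 28 death receptor, BCL2 family and caspase genes 4 rose in effect and none fell, where 4.07% of all genes tested rose and 3.71% fell. FAS, a death receptor, had intensities at 18 h of 1175, 1006 and 1101 in enzastaurin cells, against 204, 250.8 and 231 in DMSO cells. The arrays at 4 h gave 248, 273 and 376 in enzastaurin cells, against 339.5, 234 and 242 in DMSO cells, overlapping. Its effect was 0.13 at 4 h, 1.23 at 10 h and 2.19 at 18 h, a change of 2.06 (SE 0.24, adjusted p = 1.07e-05). BCL2L11, which encodes the pro-apoptotic BH3 protein BIM, changed by 1.05 (SE 0.11), PMAIP1, which encodes NOXA, by 0.70, and the death receptor gene TNFRSF21 by 0.61. BAX (-0.43), BCL2L1 (0.10) and MCL1 (0.31) were not called.

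Other large late rises belonged to varied functions. GPRC5B, an orphan receptor, had intensities at 18 h of 556, 546 and 591 in enzastaurin cells, against 32.7, 121 and 225 in DMSO cells. Earlier, at 4 h, the values were 261, 272 and 113 in enzastaurin cells, against 272, 223 and 225 in DMSO cells, and the change was 2.54 (SE 0.55, adjusted p = 0.00554). SYTL2, an effector of Rab27 in vesicle traffic, changed by 2.22 (SE 0.21) and H2BC12, a clustered histone H2B gene, by 1.88. TSC22D1, a TGF-beta-stimulated factor, changed by 1.37, a call lost with probe sets averaged, and RAP1GAP, which switches off the GTPase RAP1, by 1.99, a call lost in 6 of 12 fits that left out 1 array (adjusted p up to 0.0819). IL17RD, an inhibitor of FGF receptor signalling, was growing, with effects of 0.51, 1.03 and 1.81 at 4, 10 and 18 h, while FGF2 itself fell (-0.54), a call lost in 9 of 12 such fits (up to 0.112).

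Glucose genes were called at a share not far from that of all genes. Of 27 genes of glucose uptake and glycolysis 2 rose and 1 fell (11.1%), with a median of -0.0727, where 7.78% of all genes tested were called. SLC2A3, the glucose transporter GLUT3, had intensities at 18 h of 1187, 1204 and 959 in enzastaurin cells, against 380.2, 267 and 389.9 in DMSO cells. Values at 4 h were 261, 206 and 359 in enzastaurin cells, against 293, 330 and 215 in DMSO cells, and the change was 1.69 (SE 0.28, adjusted p = 0.000675). HK2, hexokinase 2, changed by 0.71 and PFKP, a phosphofructokinase, by -0.35. Both lost their calls with array medians subtracted, and both changes turned sign when probe sets were averaged, to -0.18 for HK2 and 0.15 for PFKP. The other HK2 probe sets had mean intensities of 70.9 and 39.0, under the level limit of 102, and the other of PFKP had 167. SLC2A1, the common transporter GLUT1, was not called (-0.07), and none of 17 glycogen genes was.

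TXNIP and ARRDC4, arrestin-like genes that respond to glucose metabolites, rose relative to DMSO while both fell with time. TXNIP changed by -1.10 in enzastaurin cells and -1.73 in DMSO cells, and ARRDC4 by -1.11 in enzastaurin cells and -1.63 in DMSO cells. The ARRDC4 call was lost in 4 of 12 fits that left out 1 array (adjusted p up to 0.0647) and with array medians subtracted. Over all genes tested 4.07% were called as rises and 3.71% as falls. Among 23 hypoxia genes 3 rose and 3 fell, with VEGFA growing (1.21 at 18 h, 0.47 at 4 h, lost with array medians subtracted) and BNIP3L, a mitophagy receptor, falling (-1.02). Among 20 FOXO and insulin genes 4 rose and 4 fell, among them IRS2 up (0.78) and IRS1 down (-0.68), the substrates of the insulin receptor, and FOXO1 itself down (-1.17). With array medians subtracted the hypoxia list had 0 rises and 3 falls and the FOXO list 1 and 4, and with probe sets averaged 2 and 4 and, for FOXO, 2 and 0.

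Cell cycle genes showed little change of effect. Of 41 genes of G2/M and mitosis 1 rose and 2 fell (median -0.0837) and of 37 genes of DNA replication 2 rose (median 0.0556), shares at or below the 7.78% of all genes tested. CDC25C, a mitotic phosphatase, fell (-0.65), AURKA, a spindle kinase, was early-only (0.37), and NUSAP1 fell (-0.30). AURKA and NUSAP1 lost their calls in 9 and 10 of 12 fits that left out 1 array (adjusted p up to 0.122 and 0.0963). The replication genes that rose were CCNE2 and CDC6, the CDC6 call being lost in 9 of 12 such fits (up to 0.112), with array medians subtracted and with probe sets averaged. Of 30 subunits of oxidative phosphorylation 2 fell, and of 16 heat shock genes 1 did, HSPB1 (-0.56).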

How the data were processed

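RNA of U251 cells was measured on Affymetrix arrays as biotinylated cRNA, per the labels' protocols. The authors deposited linear signal intensities per probe set, made with GCOS 1.2 per the submitters' processing notes and scaled to a common level as the values show. No floor, filter or batch is given in the sources used here. Of 54613 probe sets, 41091 had 1 gene symbol, 1801 several and 11721 none. Symbols were updated by gene ID to RefSeq for 41037. The brightest probe set stood for each of 19775 genes, and the 12376 at or above the median level of all probe sets (intensity 102) were tested.

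From the intensities, log2(intensity + 16) entered a limma fit (version 3.58.1, R 4.3.3) holding 1 mean for each of the 6 groups over all 18 arrays and empirical Bayes with a trend on level. Adding 16 understates the change of dim genes. Each contrast was adjusted by Benjamini-Hochberg over the 12376 genes. Classes used the calls at 4 h, 18 h and of the change. The 10 h groups entered the estimate of spread and were otherwise left out of the sorting. The script was tested on simulated data.

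Named genes were the called genes with the largest changes in each class and direction, whose 3 enzastaurin arrays lay beyond all 3 DMSO arrays wherever the effect was called, up to 3 members of each of 42 gene lists with the smallest adjusted p, and MYC, AXIN2, GSK3A, GSK3B and PRKCB. Other list members are named with their values where the text counts the list. The members, lists and tests were chosen with earlier results of these data known. Promoters came from RefSeq (GRCh38.p14). Alternatives covered the offset, level filter, normalization, probe set choice, arrays, weights, trend, replicate block, thresholds and each array left out. Figures were drawn with matplotlib 3.10.9 in Python 3.11.15.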

Additional observations from a re-analysis of the deposited data

Results flagged for a closer look

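The effect of enzastaurin differed between 18 and 4 h by a test of the difference itself, in limma over all genes, for 963 genes, with 504 rises and 459 falls. By class these were 755 late-only, 60 early-only, 23 growing, 23 reversing and 5 fading genes, and 97 called at neither time. No outlier test was run within the groups of 3 arrays; the effect of leaving out single arrays is given below.

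The reversing genes named have opposite called effects at both times. The effect was positive at 18 h and negative at 4 h for TAMALIN (change 3.60), KLF4 (1.72), HEY1 (1.19), DUSP5 (1.17), IER5 (1.10), FZD7 (1.06), SOX4 (1.06), RAB22A (1.01), SOX2 (0.99), CCNE2 (0.86) and CEBPB (0.63). It was negative at 18 h and positive at 4 h for CAPS (-1.94), ACD (-0.70) and MRPL12 (-0.54). For CAPS and RAB22A, other probe sets above the median level did not show the reversal, as given above.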

How the results depend on the processing

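The 139 named genes include MYC, GSK3A and PRKCB, whose changes were not called. Among the named genes, no called change turned its sign under the alternatives run except PRKCA (0.23), PFKP (0.15), HK2 (-0.18) and BCL6 (-0.16) with probe sets averaged. The uncalled change of PRKCB ran from -0.26 to 0.20 when 1 array was left out. With array medians subtracted, 546 genes were called (143 rises, 403 falls), with 9 growing, 433 late-only, 11 early-only, 1 fading and 5 reversing. With probe sets averaged there were 543 (289 rises, 254 falls), with 14 growing, 430 late-only, 29 early-only, 3 fading, 10 reversing and 57 called at neither time. A fit to the 12 arrays gave 3 fading and 15 reversing genes, array weights 3 fading, and no trend 15 growing and 3 fading. Sorting by unadjusted p at each time gave 69 growing, 167 reversing and 0 called at neither time. A 2-fold minimum left 170 genes (97 rises, 73 falls), with 9 growing, 129 late-only, 6 early-only, 1 fading, 10 reversing and 15 at neither time. At an adjusted p under 0.10 there were 693 falls, 94 early-only, 38 reversing and 155 at neither time. Without the 2 most deviating arrays, chosen after seeing the data, there were 332 rises, 1 fading and 15 reversing.

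Leaving out 1 array at a time gave 704 to 906 called genes, 373 to 512 rises, 331 to 423 falls, 14 to 23 growing, 569 to 709 late-only, 28 to 58 early-only, 3 to 5 fading, 14 to 24 reversing and 57 to 113 at neither time. The low ends were 14 growing genes without DMSO 4 h replicate 1, 28 early-only without enzastaurin 4 h replicate 1, and 14 reversing and 57 at neither time without DMSO 4 h replicate 3. Early-only genes numbered 38 without DMSO 4 h replicate 1 and without DMSO 4 h replicate 3. Fading genes numbered 3 without DMSO 4 h replicate 3, DMSO 18 h replicate 1 or enzastaurin 18 h replicate 3.

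The replicate block gave 942 called genes and ended the CLK1 call alone among 139 named. Equal replicate numbers did not deviate together, with correlations of -0.133 to 0.186 over 45 pairs, so they were not taken as pairs. Among the 139 named genes, 34 calls were lost with array medians subtracted, 46 with probe sets averaged and 79 with the 2-fold minimum. Without the 2 most deviating arrays 24 were lost, and 8 to 18 when 1 array was left out. The causes were not tested, apart from what holds by construction. A 2-fold minimum admits fewer genes, and subtracting array medians shifts every change by the same amount. Dim genes near the level limit, such as TAMALIN and SLC12A1, are measured with the least signal over background.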

Other observations

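Among all genes tested 7.78% were called for a change of effect, 4.07% as rises and 3.71% as falls. Of 31 lysosome and autophagy genes 4 rose and 3 fell in effect, with a median change of 0.0125, and the rises numbered 1 with array medians subtracted or without the 2 most deviating arrays. NEU1, a lysosomal sialidase, changed by 1.15, while GABARAPL1, an autophagosome protein, changed by -0.70. Of 16 NRF2 targets 2 rose and 1 fell, with SRXN1, sulfiredoxin, at 0.61 and NQO1, a quinone reductase, at -0.50, and 1 rose with array medians subtracted. Of 13 circadian clock genes 2 rose, CRY1 (0.68) and NFIL3 (0.57), and both calls were lost with array medians subtracted. Of 21 p53 and growth arrest targets 2 rose and 1 fell, the fall being PLK2, a polo-like kinase (-1.28), and 1 rose with array medians subtracted. Of 8 clustered histone genes 2 rose, H2BC5 and H2BC12, with a list median of 0.686, and the H2BC5 call was lost with probe sets averaged.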
